A study of Mus musculus with 6 samples.

Results

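The genes described here are 9 markers of astrocytes, found in the deposited matrices under the symbols S100B, GFAP, AQP4, ALDH1L1, SLC1A2, SLC1A3, GJA1, GLUL and ALDOC and written below as mouse symbols. They were taken by symbol, with the case of letters ignored, and that rule used no measured value. The list itself was chosen with earlier results of these data known. They are 9 of 19378 genes in the section with the most genes, the control paw. The series holds 6 mouse sections laid on barcoded DNA arrays, 1 section for each combination of tissue, condition and histone mark. An antibody against the mark brought protein A-Tn5, a transposase that cuts chromatin, to the marked sites, and each cut fragment was captured with the barcodes of its array spot. The adult wild-type brain was profiled for H3K4me3 in a cryosection of 20 µm. The whole wild-type embryo at E11.5 was profiled for H3K27me3, for H3K27ac and for H3K4me3, each in its own cryosection of 16 µm. A paw from an adult mouse with collagen-induced arthritis (CIA) and a paw from an adult control mouse, both labelled as 42 days, were profiled for H3K27ac. The paws were fixed, decalcified and embedded in paraffin, and the sections were 4 µm thick. The sources used here give neither strain nor sex. With 1 section per group no spread between animals was measured, so every value below describes these sections, and its interval covers counting error alone.

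Astrocytes are the glial cells that clear glutamate from synapses, buffer potassium and water around vessels and supply neurons with metabolites. H3K4me3 marks the start sites of active genes, H3K27ac marks active promoters and enhancers, and H3K27me3 lies over genes held silent by Polycomb complexes. Astrocytes form in the mouse brain late in gestation and after birth, from radial glia that first make neurons, so an embryo at E11.5 precedes most of them. A section holds all cells of the tissue, so fewer cells of a type and less mark per cell cannot be told apart in any value below.

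The DNA just before the start sites shows how unlike the 9 genes are as targets of a mark found at CpG-rich promoters. RefSeq windows of GRCm38.p6 matched 8 of the 9 members, Aldoc with a pair of start sites. The 250 bases upstream are printed 5′ to 3′ on the strand of the gene for 5 windows, with each CpG in capitals. They are the window with the most CpG (Glul), the member with the most embryo H3K4me3 reads (Aldh1l1), the member with the most control paw reads (S100b), the upstream Aldoc window and Gfap.
Glul, chr1:153899679-153899928, plus strand: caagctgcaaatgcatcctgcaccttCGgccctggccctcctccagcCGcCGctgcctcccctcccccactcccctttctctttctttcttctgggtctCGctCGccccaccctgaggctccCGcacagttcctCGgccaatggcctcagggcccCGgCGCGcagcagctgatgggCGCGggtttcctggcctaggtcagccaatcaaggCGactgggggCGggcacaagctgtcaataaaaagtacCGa
Aldh1l1, chr6:90550543-90550792, plus strand: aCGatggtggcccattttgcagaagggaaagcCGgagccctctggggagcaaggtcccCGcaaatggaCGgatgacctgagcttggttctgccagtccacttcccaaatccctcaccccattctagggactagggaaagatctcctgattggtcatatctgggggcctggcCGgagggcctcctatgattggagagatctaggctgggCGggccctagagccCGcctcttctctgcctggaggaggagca
S100b, chr10:76253586-76253835, plus strand: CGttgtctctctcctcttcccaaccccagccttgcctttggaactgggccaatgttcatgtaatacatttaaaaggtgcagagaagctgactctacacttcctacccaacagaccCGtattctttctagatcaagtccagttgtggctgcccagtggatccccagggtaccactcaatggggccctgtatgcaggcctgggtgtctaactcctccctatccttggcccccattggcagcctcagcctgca
Aldoc, chr11:78322823-78323072, plus strand: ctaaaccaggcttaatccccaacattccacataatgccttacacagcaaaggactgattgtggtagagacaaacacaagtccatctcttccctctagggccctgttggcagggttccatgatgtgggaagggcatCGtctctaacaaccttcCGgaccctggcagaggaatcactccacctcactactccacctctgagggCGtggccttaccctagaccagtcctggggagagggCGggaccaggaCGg
Gfap, chr11:102897201-102897450, minus strand: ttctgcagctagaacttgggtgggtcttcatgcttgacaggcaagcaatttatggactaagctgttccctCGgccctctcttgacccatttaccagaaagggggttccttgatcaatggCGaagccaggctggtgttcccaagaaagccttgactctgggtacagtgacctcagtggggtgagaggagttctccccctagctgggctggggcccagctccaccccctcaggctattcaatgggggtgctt

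The Glul window held 15 CpG at 0.601 of the number that its C and G content would give, Aldh1l1 held 7 and Gja1 held 6. The Aldoc windows held 5 and 3, S100b, Gfap and Slc1a3 held 2 each, and Slc1a2 held 1. Over all 32851 promoter windows of 27025 genes the median was 6, so 5 of the 8 matched members had fewer CpG than the median promoter in all their windows. In every section the median rank was higher for classes of genes with more CpG. In the brain the median percentile rank of a gene was 55.4 with 15 or more CpG, 50.8 with 5 to 14 and 37.3 with 0 to 4. The members followed that order only in part in the brain, as described below. S100b with 2 CpG (percentile 75.5) outranked Glul with 15 (56.6). Slc1a2 with 1 CpG ranked lowest (29.7), and Gja1 with 6 (79.5) and Aldh1l1 with 7 (78.1) ranked above S100b.

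Short motifs of factors that act in glia were searched on both strands of the same 250 bases. The STAT motif TTCNNNGAA occurred 2 times in the downstream Aldoc window, 124 and 83 bases before the start, and 1 time in Slc1a3, 96 bases before it. It occurred in 7.02% of all promoter windows. The NFI half-site TTGGCA lay 19 bases before the S100b start and 146 bases before the upstream Aldoc start, against 12.3% of all windows with a match. The SOX motif AACAAT was in no member window and in 9.42% of all windows, and TATAAA was in Slc1a3, on the minus strand, and in 12.4% of all windows. No match overlapped another, and a match describes the letters only.

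The deposited values are quantile-normalised and depend in part on the place of a gene in the row order, so whole reads per gene and spot were recovered from their ranks and are the unit below. The sections held 403483 to 5981684 reads in 248 to 1200 spots. In the brain, spots in odd array columns had a median of 589 reads and spots in even columns 2653.5. All reads of the 9 genes lay in the range in which the recovery is exact. Reads are given per gene and not per length, and the sources used here do not state which stretch was counted for a gene, so an order of genes within a section is an order of reads.

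The 7 members measured in the brain carried H3K4me3 reads at or above the level of the usual gene there, apart from Slc1a2. Their median percentile rank among the 11345 genes of the section was 75.5, and 6 of 7 lay above the section's median gene. Aqp4 led with 233 reads, followed by Gja1 with 222, Aldh1l1 with 214, S100b with 201, Aldoc with 155, Glul with 136 and Slc1a2 with 81. Neighbours in this order had overlapping 95% counting intervals (exact Poisson) down to Glul (114 to 161). Slc1a2, with an interval of 64.3 to 101, stood apart below it. Gfap and Slc1a3 in the brain were not analysed here, so the median and the count leave out both. In embryo H3K4me3 they ranked lowest of the members, Gfap at percentile 15.5 and Slc1a3 at 5.39. A read of a given member was found in 6.42% (Slc1a2) to 16.7% (Aqp4) of the 1200 spots. The rank rests on the recovery of reads: with the deposited values the median percentile was 54.5, and with those values divided by each spot's own factor it was 50.4.

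The brain section was set against markers of other cells to check its label. The median percentile was 51.3 for 11 neuron genes, 73.5 for 9 oligodendrocyte genes, 55.2 for 6 microglia genes and 46.4 for 4 endothelial genes. Genes of tissues that should be absent were not at 0. Keratinocyte genes lay at 58.2 (4 genes, 69 to 168 reads) and skeletal muscle genes at 47.1 (6 genes, 44 to 158 reads). These ranges overlap the 81 to 233 reads of the astrocyte members, so the reads of single genes did not set brain genes apart from skin or muscle genes in this section.

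**Figure D1:**
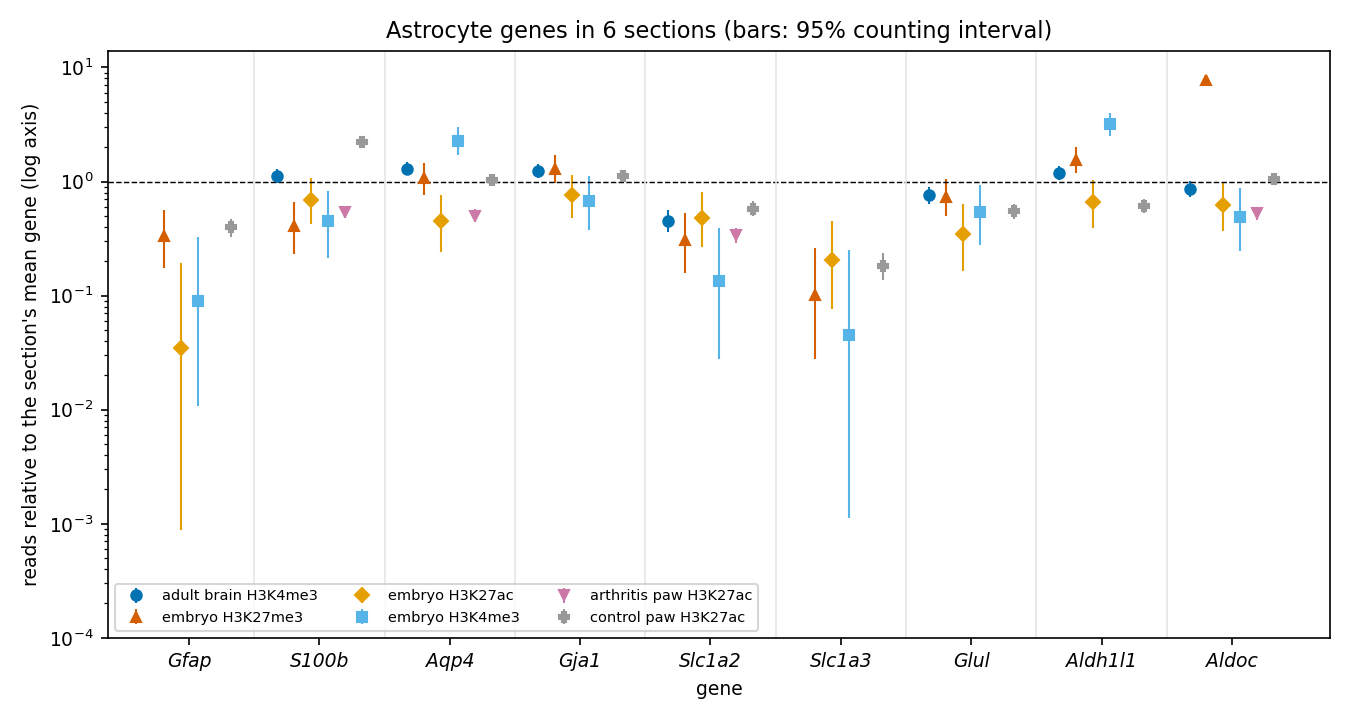
Reads of each member divided by the mean reads per gene of its section, on a log axis, for the 6 sections; bars are 95% exact Poisson intervals, and a missing point means that the gene was not analysed in that section. Aldoc in embryo H3K27me3 (7.72) and Aldh1l1 in embryo H3K4me3 (3.18) stand highest, and Slc1a3 and Gfap lie below 1 in every section shown.

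In the per-gene data, each level is relative to the mean over the section's own genes. Their number ran from 11130 in the arthritis paw to 19378 in the control paw. Levels of different sections therefore do not rest on the same genes. The structural genes came first. Gfap, the intermediate filament protein by which astrocytes are usually stained, had 13 reads in embryo H3K27me3, 1 in embryo H3K27ac, 2 in embryo H3K4me3 and 122 in the control paw. Its embryo H3K27me3 level, 0.330 of the section mean (0.176 to 0.565), was the highest of its 3 embryo levels, which rest on 16 reads in all. In the control paw Gfap lay at percentile 43.8. S100b encodes a calcium-binding protein that astrocytes share with Schwann cells, chondrocytes and adipocytes. It had 201 reads in the brain, 16, 20 and 10 in embryo H3K27me3, H3K27ac and H3K4me3, 262 in the arthritis paw and 679 in the control paw. The control paw was its highest section, at 2.20 times the section mean (2.04 to 2.37), and the brain came next at 1.12 (0.970 to 1.29). Over the genes held by both paws, its control paw level was 1.68.

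Aqp4, the water channel of the end-feet on vessels, had 233 reads in the brain, 42, 13 and 51 in embryo H3K27me3, H3K27ac and H3K4me3, 241 in the arthritis paw and 318 in the control paw. Its relative level was highest in embryo H3K4me3, at 2.28 (51 reads, interval 38.0 to 67.1), and lowest in embryo H3K27ac, at 0.449 (0.239 to 0.767). Gja1 encodes connexin 43, which joins astrocytes through gap junctions and is also a connexin of heart and bone. It had 222 reads in the brain, 51, 22 and 15 in embryo H3K27me3, H3K27ac and H3K4me3 and 346 in the control paw. Gja1 lay between 0.672 and 1.30 of the section mean in these 5 sections. Its intervals for single sections overlapped, which does not show that the levels were equal. Intervals of its log2 ratios between sections, taken without the pseudocount described below, excluded equal levels for some pairs. They were 0.42 to 2.03 for brain over embryo H3K4me3 and 0.034 to 1.82 for embryo H3K27me3 over H3K4me3. For embryo H3K27me3 over H3K27ac the interval was 0.015 to 1.55. The interval for embryo H3K27ac over H3K4me3, -0.89 to 1.18, included equal levels.

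The glutamate transporters lay below the mean gene of every section in which they were measured. Slc1a2, which encodes GLT-1, had 81 reads in the brain, 12, 14 and 3 in embryo H3K27me3, H3K27ac and H3K4me3, 162 in the arthritis paw and 179 in the control paw. Its 6 levels lay between 0.134 and 0.580 of the section mean. Slc1a3, which encodes GLAST and is already used by radial glia, had 4, 6 and 1 reads in embryo H3K27me3, H3K27ac and H3K4me3 and 56 in the control paw. It ranked last or next to last of the 9 genes in each of these 4 sections, at percentiles of 5.39 to 30.2.

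The enzymes came last by role. Glul, glutamine synthetase, turns the captured glutamate into glutamine. It had 136 reads in the brain, 29, 10 and 12 in embryo H3K27me3, H3K27ac and H3K4me3 and 170 in the control paw, and its relative levels stayed between 0.345 and 0.758. Aldh1l1, an enzyme of folate metabolism, had 214 reads in the brain, 61, 19 and 71 in embryo H3K27me3, H3K27ac and H3K4me3 and 188 in the control paw. Its embryo H3K4me3 level of 3.18 (2.48 to 4.01) put it at percentile 95.4 of that section, and Aqp4 lay at 93.6. Aldoc, the aldolase of brain glycolysis, had 155 reads in the brain, 304, 18 and 11 in embryo H3K27me3, H3K27ac and H3K4me3, 252 in the arthritis paw and 326 in the control paw. The 304 reads placed it at percentile 98.4 of embryo H3K27me3, 7.72 times the section mean (6.88 to 8.64).

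The Aldoc reads could not be assigned to Aldoc alone. Its neighbour on the chromosome, Pigs, a gene of the enzyme complex that attaches GPI anchors, had 302 reads in embryo H3K27me3. In 151 of the 163 spots with a read of either gene both had the same number, and 297 reads, 97.7% of those of Aldoc, were matched by a Pigs read in the same spot. In the control paw Pigs had 317 reads and 83.4% of the Aldoc reads were matched, and in the arthritis paw Pigs had 222 reads and 64.3% were matched. In embryo H3K27ac (21 Pigs reads) the share was 94.4% and in embryo H3K4me3 (11 Pigs reads) 72.7%. Over spots, the reads of both genes correlated at r = 0.99 in embryo H3K27me3, as a description over 254 spots of 1 library. In the arthritis paw r was 0.66, and 128 of the 274 spots with a read of either gene had equal numbers. There Supt6, another neighbour with 1577 reads, matched 77.8% of the Aldoc reads at r = 0.12. A matched share alone thus does not show that reads are the same. Without strand or position of the reads, the matched part of the Aldoc signal cannot be told apart from Pigs signal. Pigs in the brain was not analysed here, so the overlap is unknown for the 155 brain reads of Aldoc. Other adjacent genes with sums within 5% were Chst13 beside Aldh1l1 and Unc119 beside Aldoc (brain), Fjx1 beside Slc1a2 and Tbc1d32 beside Gja1 (embryo H3K4me3), Unc119 (embryo H3K27ac) and Dip2a beside S100b (arthritis paw). These shared 11.1% to 33.3% of the member's reads by spot, the highest share being 1 of 3 reads.

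**Figure D2:**
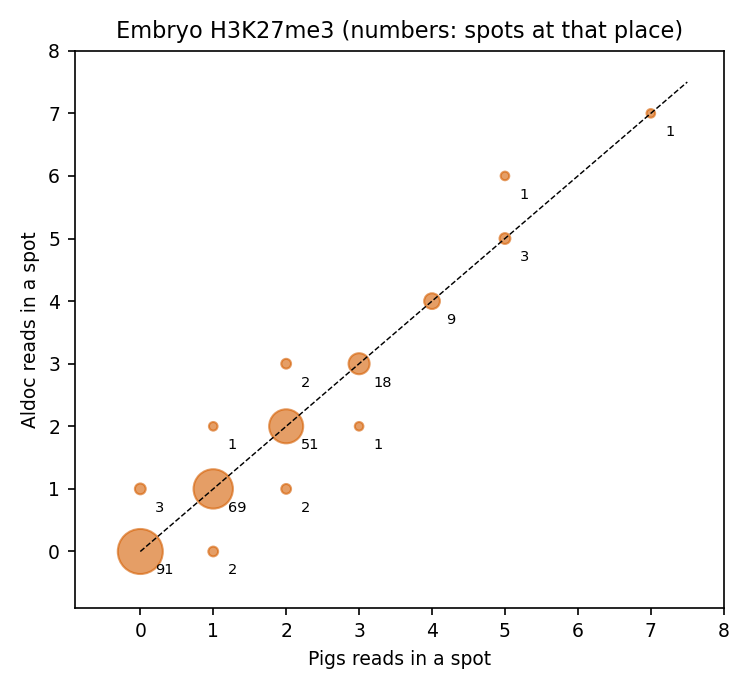
Reads of Aldoc (vertical axis) and of its neighbour Pigs (horizontal axis) in each of the 254 spots of the embryo H3K27me3 section; circles grow with the number of spots, which is printed beside each. Nearly all spots lie on the dashed line of equal reads, among them 91 with no read of either gene, 69 with 1 read of each and 51 with 2.

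The comparison of adult brain with embryo H3K4me3 asks whether astrocyte genes gain the mark of active start sites in the organ and at the age at which astrocytes exist. Reads were scaled by their mean over the 11127 genes present in both sections, a pseudocount of 0.1 was added and a log2 ratio was taken, and a gene counts as past the fold when it lies 1 or more from the median of all genes. No member was higher by that rule, against 7.23% of all genes. Aldh1l1 and Aqp4, 2 of the 7 members compared, were lower, against 11.7% of all genes. The median log2 ratio of the members was 0.94, and that of all genes was 0.66. Without Aldoc the median of the members was 0.85.

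Aldh1l1 had 1.18 times the mean level in the brain and 2.56 times the mean level in the embryo, a log2 ratio of -1.06. Without the pseudocount the ratio was -1.12, with a 95% interval from exact binomial limits of -1.52 to -0.72. Aqp4 had a log2 ratio of -0.49, with 1.28 in the brain and 1.84 in the embryo, and its ratio without the pseudocount was -0.52 (-0.97 to -0.06). Both genes still ranked high in the brain, at percentiles 78.1 and 81.2. The lower ratios thus stand beside high levels in both sections.

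The other 5 members lay at or above the median of all genes. Slc1a2 and S100b had the highest log2 ratios, each 1.39. S100b had 1.10 times the mean in the brain and 0.361 in the embryo, and its embryo level rests on 10 reads. Slc1a2 had 0.445 in the brain and 0.108 in the embryo, there from 3 reads, so that its ratio without the pseudocount spans 0.44 to 4.35. Gja1 lay at 1.04, Aldoc at 0.94 and Glul at 0.67. The ratio of Gja1 without the pseudocount was 1.17 (0.42 to 2.03). These values have no replicate check, and no member other than Aldh1l1 and Aqp4 passed the fold. S100b and Slc1a2 passed it upward with odd columns alone, with the mean of spot shares and without the highest 1% of spots per gene, and Slc1a2 did so with a pseudocount of 0.01. With odd columns the log2 ratio of S100b was 2.48. With the deposited values S100b lay at 0.43, below the median of all genes (0.74), and Aldh1l1 alone was past the fold. With a pseudocount of 1 no member was.

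**Figure D3:**
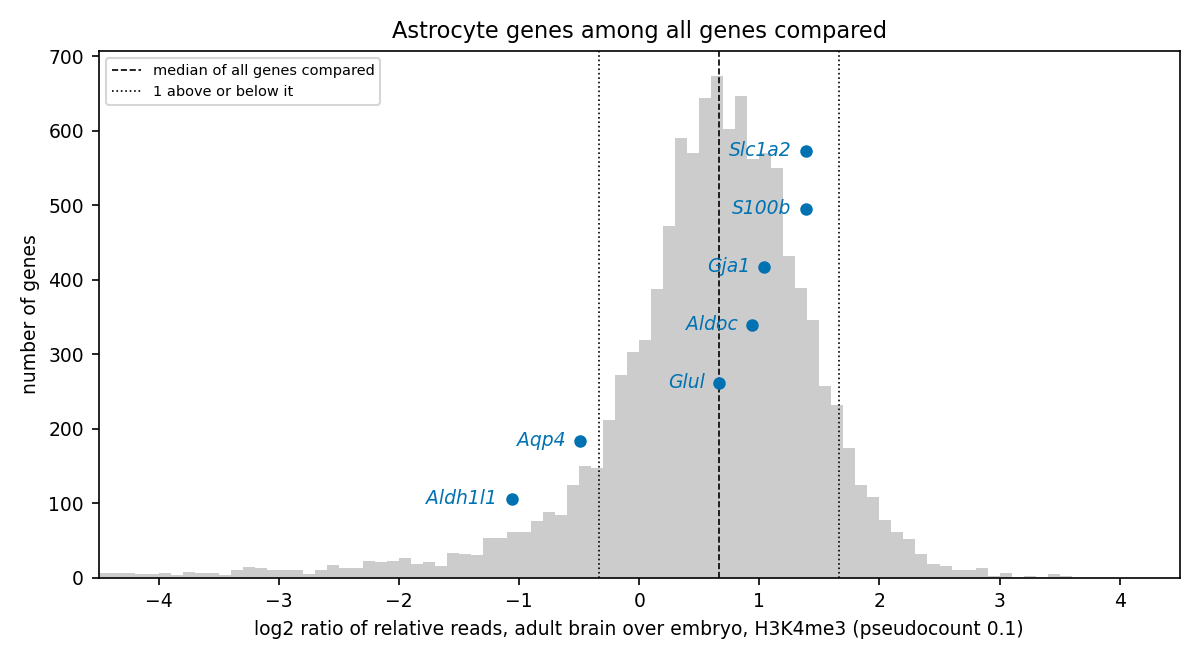
Histogram of the log2 ratio of relative H3K4me3 reads, adult brain over embryo, for the 11127 genes held by both sections (horizontal axis: log2 ratio; vertical axis: number of genes), with the 7 members as points at arbitrary heights. The dashed line is the median of all genes, 0.66, and the dotted lines lie 1 from it; Aldh1l1 (-1.06) and Aqp4 (-0.49) are left of them and no member is right of them.

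A wider set of 63 astrocyte genes, the genes on 5 lists by role, was counted by the same rule. Of the 46 held by both sections, 3 were higher, 2 were lower and 41 were neither, with a median log2 ratio of 0.75. The upward share is near the 7.23% of all genes and the downward share is below their 11.7%, so neither count is a result about astrocyte genes. Among 12 regulators of astrocyte fate the median was 0.72, with 1 higher and 0 lower. Notch1, the receptor that keeps neural progenitors from becoming neurons, was highest at 2.05, with 112 reads in the brain and 2 in the embryo. Sox9, a transcription factor of glial fate, was lowest at -0.12. The 7 end-foot and ion genes had a median of 1.00 and none past the fold, and Dag1, the end-foot matrix receptor dystroglycan, was lowest at 0.15.

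The 9 genes of transport and metabolism had a median of 0.78, with Prodh, proline dehydrogenase, higher at 1.68 and Ndrg2, which astrocytes express strongly, lower at -0.51. Among 10 secreted factors the median was 0.56, with Agt, angiotensinogen, higher at 2.01 and none lower. The lowest, Gpc6, a glypican that promotes synapses, lay at -0.02. The 8 genes of reactive astrocytes had a median of 0.66, with none higher and 1 lower. Cxcl10, a chemokine, was at 1.34 and Hspb1, a small heat shock protein, at -1.14. Medians of other cell types were 1.32 for oligodendrocyte genes, 0.84 for microglia, 0.78 for neurons, 0.51 for endothelium and 0.46 for radial glia. Lists of tissues absent from brain went both ways. Their medians were 0.93 for 6 skeletal muscle genes, 0.76 for 4 keratinocyte genes, 0.29 for 4 adipocyte genes and -0.099 for 4 chondrocyte genes. The chondrocyte list includes Sox9 (-0.12), which is also on the list of astrocyte regulators, so it is not a list of genes absent from brain. The difference between these medians was not tested.

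**Figure D4:**
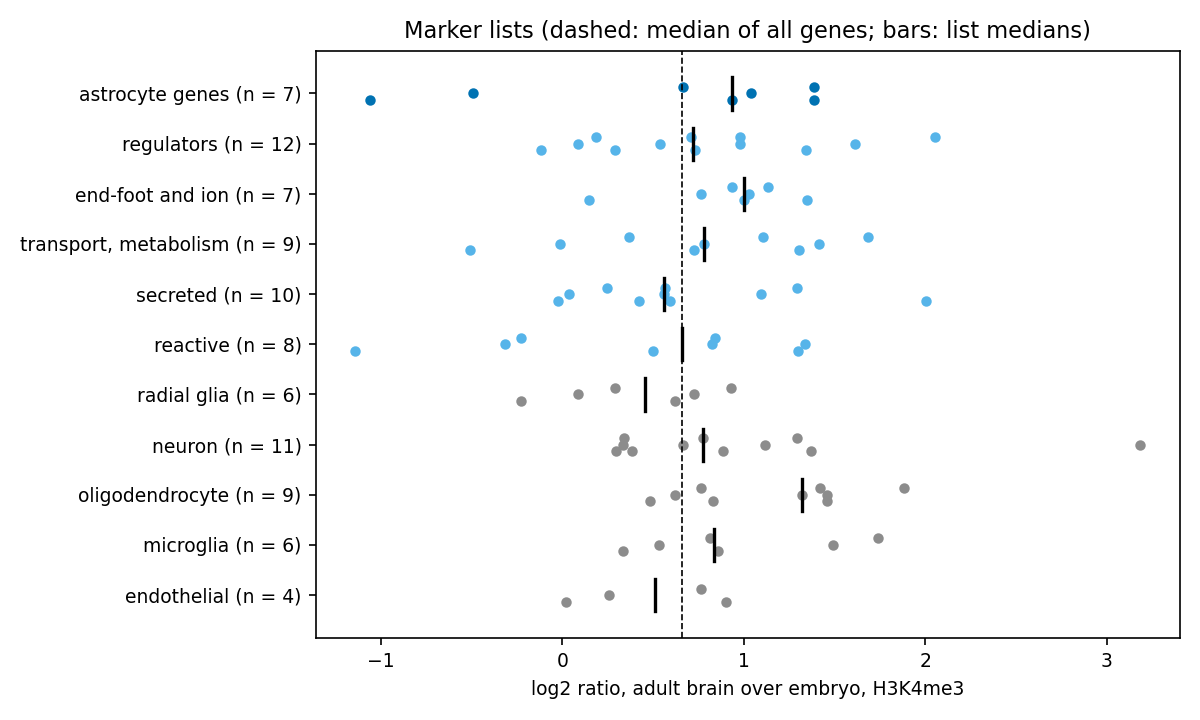
Log2 ratio of relative H3K4me3 reads, adult brain over embryo (horizontal axis), for the members, 5 wider astrocyte lists and 5 lists of other cell types (rows; n is the number of genes held by both sections); each point is a gene, black bars are list medians and the dashed line is the median of all genes, 0.66. The oligodendrocyte list has the highest median, 1.32, and the 7 members spread from -1.06 to 1.39.

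In the embryo, the repressive mark was compared with the active promoter mark over 17837 genes. Gfap and Aldoc had more H3K27me3 than H3K4me3, 2 of 9 members against 13.3% of all genes, and Aqp4 and Aldh1l1 had less, 2 of 9 against 11.1%. The median log2 ratio was 0.44 for the members and 0.08 for all genes. Aldoc lay at 3.66 (3.91 without the pseudocount, interval 3.05 to 4.93), with the neighbour Pigs at nearly the same reads in both sections. Gfap lay at 1.13, and its interval without the pseudocount, -0.32 to 5.01, includes 0. Aqp4 lay at -1.08 and Aldh1l1 at -1.05, with intervals of -1.78 to -0.54 and -1.62 to -0.58. Aldh1l1 thus had reads of both marks above the mean gene, with more of H3K4me3. Aqp4 had 2.26 times the mean level of H3K4me3 and lay at the mean gene in H3K27me3, at 1.01. Aldoc was past the fold under every alternative that kept it. Gfap was not past it with the deposited values, with those values without the spot factor, with a pseudocount of 1, with even columns, with the mean of spot shares or without columns 1, 5, 9 and so on. Aqp4 was not past it in either form of the deposited values, with a pseudocount of 1 or with the mean of spot shares, and Aldh1l1 was not with a pseudocount of 1 or with odd columns.

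Against H3K27ac, over 18653 genes, 5 of the 9 members had more H3K27me3, against 12.3% of all genes, and none had less, against 11.6%. The 5 were Aldoc at 3.43, Gfap at 1.66, Aldh1l1 at 1.12, Aqp4 at 1.08 and Glul at 0.90. Glul passed the fold narrowly, with 29 reads in H3K27me3 and 10 in H3K27ac, and its interval without the pseudocount was 0.008 to 2.29. The Gfap value rests on 13 and 1 reads. The median was 0.90 for the members and -0.12 for all genes, and it was 0.80 without Aldoc. Gja1 was inside the fold at 0.69. S100b (-0.65), Slc1a3 (-0.61) and Slc1a2 (-0.53) lay on the other side of 0, and their intervals included 0. The upward count depends on settings, from 1 with a pseudocount of 1 to 6 with odd columns alone. Downward, S100b was past the fold with the deposited values and Slc1a3 with odd columns alone. The wider astrocyte genes did not share the direction. Their median was -0.37, with 3 higher and 8 lower of 63.

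For the active marks against each other, over 17762 genes, Slc1a2 had more H3K27ac than H3K4me3, 1 of 9 members against 12.9% of all genes. Aqp4 and Aldh1l1 had less, 2 of 9 against 12.3%. The median was 0.11 for the members and 0.20 for all genes. Aqp4 had 0.426 times the mean level of H3K27ac and 2.25 times the mean level of H3K4me3, a log2 ratio of -2.16. Aldh1l1 had 0.623 and 3.14, also -2.16, and the intervals without the pseudocount were -3.40 to -1.50 for Aqp4 and -3.14 to -1.58 for Aldh1l1. Slc1a2 lay at 1.27 from 14 and 3 reads, with an interval that reached -0.05. The 3 embryo comparisons share sections, so that a high embryo H3K4me3 level of Aqp4 and Aldh1l1 enters both comparisons with that mark and the one with the brain.

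In the paws, tissue without astrocytes, the comparison asks about H3K27ac in an inflamed joint, and 4 members were held by both sections. The other 5 members were not analysed here in the arthritis paw. S100b was lower in the arthritis paw, with 0.546 times the mean level there and 1.68 times in the control paw, a log2 ratio of -1.46. Without the pseudocount the ratio was -1.62 (-1.83 to -1.41). It was 1 of 4 members past the fold downward, against 9.04% of all 11130 genes, and none was past it upward, against 9.84%. With a pseudocount of 1 no member was past it. Aqp4 lay at -0.56, Aldoc at -0.54 and Slc1a2 at -0.31, and the median was -0.55 for the members and 0.11 for all genes. All 4 members thus lay below the median ratio of all genes. Their levels were 0.337 to 0.546 of the mean in the arthritis paw and 0.442 to 1.68 in the control paw. Without S100b they were 0.337 to 0.525 in the arthritis paw and 0.442 to 0.805 in the control paw.

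Markers of the other cells that use S100b were read in the same comparison. The 7 Schwann cell genes had a median of -0.05 with none past the fold in either direction. The 3 chondrocyte genes had a median of -0.57, with Sox9 lower at -1.07, and the 3 adipocyte genes had a median of 0.41, with Pparg, the regulator of fat cell formation, higher at 1.18. Both paws held 7 of 8 listed Schwann cell genes, 3 of 6 chondrocyte genes and 3 of 6 adipocyte genes, and none of those was at 0. Over these genes the mean level relative to the mean gene was 0.601 in arthritis and 0.715 in the control for Schwann cells, 0.548 in arthritis and 0.961 in the control for chondrocytes, and 1.14 in arthritis and 0.796 in the control for adipocytes. Their part in the S100b value was not tested.

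**Figure D5:**
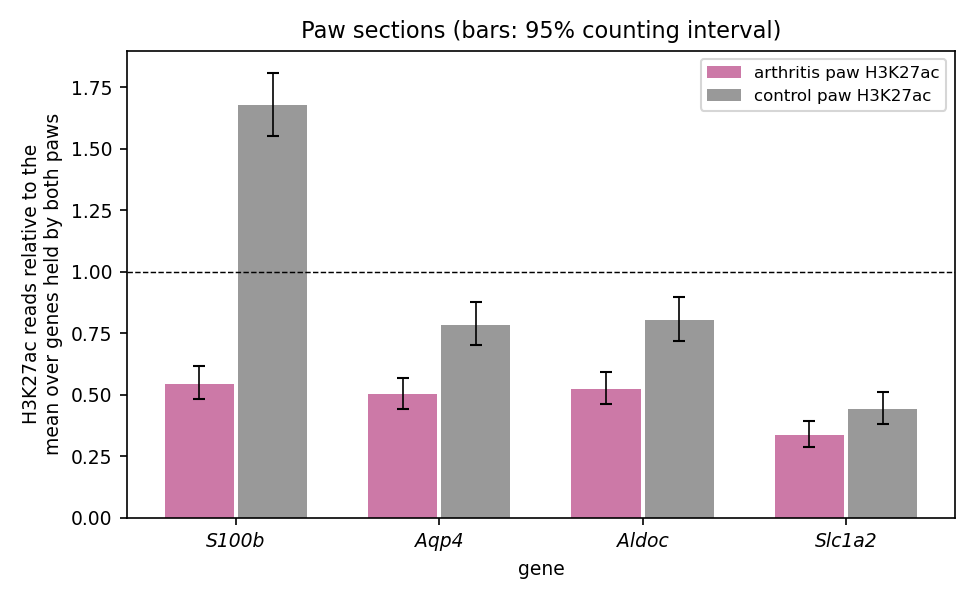
H3K27ac reads of the 4 members held by both paws, scaled by the mean gene present in both paws (vertical axis, starting at 0), in the arthritis paw (left bars) and the control paw (right bars); error bars are 95% exact Poisson intervals of the reads. S100b has 0.546 in arthritis and 1.68 in the control, the widest gap of the 4.

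Over the spots of the brain section, little correlation between members was seen. In the brain 668 of 1200 spots (55.7%) held a read of any member, and 108 held reads of 3 or more. The share of a spot's reads was correlated for the 21 pairs of members, with a median r of -0.01 and a range of -0.05 to 0.12. The median over all pairs of 5887 genes with reads in the same range was also -0.01. The pairs with the highest r were Aqp4 with Slc1a2, at 0.12 with 21 spots that held both, and Aldh1l1 with Aldoc, at 0.10 with 30. In the other sections the median r of the pairs was -0.02 to 0.005. The highest there were S100b with Aldoc in embryo H3K27me3, at 0.21, and Gfap with Slc1a3 in the control paw, at 0.19. The spots of a section share 1 library and few reads per spot, so the correlations are a description and none is a finding. With so few shared spots, a lack of correlation does not show that the members were apart.

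Clustering of a gene between neighbouring spots was measured by Moran's I, which is near 0 without clustering and positive where neighbours are alike. In the brain it was -0.04 to 0.01 for the 7 members, and Aqp4 had the lowest, at percentile 1.47 among 3126 genes of like reads (within 1.5-fold). The total reads of brain spots had an I of -0.62. In the arthritis paw S100b had an I of 0.05, at percentile 97.1 among 4165 like genes. In the control paw Gfap had an I of 0.08, at percentile 97.3 among 6034 like genes, and 37 of its 122 reads lay in array columns 1, 5, 9 and so on in steps of 4, which is 2.35 times the share of all reads there. For S100b in the control paw, where it was most abundant, the I was 0.02, at percentile 54.1.

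Hcar1 and Cdh10 were among the genes whose levels over the 6 sections were most like the median member. Likeness was the Euclidean distance between profiles of log2 relative level, among 2440 genes with 20 reads or more in every section. The distances were 0.991 for Hcar1 and 1.13 for Cdh10, against a median of 3.58. Hcar1 had 183 reads in the brain, 28, 21 and 21 in embryo H3K27me3, H3K27ac and H3K4me3, 296 in the arthritis paw and 200 in the control paw. The arthritis paw enters this profile with 4 members and the brain with 7. The middle member had 11 reads in embryo H3K4me3 and 14 in embryo H3K27ac, so the minimum of 20 reads leaves out genes at its own level there, and both named genes lie at 20 or 21 reads in these sections.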

How the data were processed

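The deposited matrices give 1 signal value for each gene in each spot, and the submitters' name for them says that the authors quantile-normalised it. The submitters' processing notes name Bowtie2, featureCounts, MACS2 and the builds hg19 and mm9, and neither their versions nor their roles are known from the sources used here. In each spot the top values are 1 common list times a factor, and ties were broken by a fixed gene order, so 46.3% to 68.9% of values above 0 belong to genes without reads. Across genes, which are not independent, Spearman's rho of the mean deposited value with that order was 0.330 to 0.584.

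Whole reads were recovered from the tied ranks, since in a sorted spot the gene order starts again at each further read. Counts shared by fewer than 5 genes are not exact. The recovery was tested on simulated data made with the same tie rule and gene order that it reverses. That test therefore cannot show that the deposited values were made this way. Using the recovered reads in place of the deposited values was decided after the values were seen. Recovered reads correlated with the order at -0.108 to -0.0594.

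Reads were summed over 1200 spots (brain, 2036521 reads), 254 (embryo H3K27me3, 749650), 251 (embryo H3K27ac, 548923), 248 (embryo H3K4me3, 403483), 943 (arthritis paw, 5344438) and 554 (control paw, 5981684). With 1 section per group no test was made. Intervals at 95% are exact Poisson for reads and exact binomial (Clopper-Pearson) for ratios, and they cover counting error only, since fragments are not shown to be independent molecules. Ratios carry a pseudocount of 0.1 on the scale of the mean gene, which understates changes of low genes, and the fold is 1 (log2) from the median of all genes.

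All 9 members are described, and 5 wider lists by counts, medians and, in the brain comparison, the highest and lowest gene; some genes that this rule would name are not reported here. The members and lists were chosen with earlier results of these data known. Neighbours and promoter windows come from RefSeq (GRCm38.p6). Alternatives covered the deposited values, pseudocounts, a filter, a scaling, summaries over spots and array columns. The work used Python 3.11.15, numpy 2.4.6, pandas 2.3.3, scipy 1.17.1 and matplotlib 3.10.9.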

Additional observations from a re-analysis of the deposited data

How the results depend on the processing

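Each median and the brain rank were recomputed under up to 13 alternatives. Of 74 such values, 70 stayed within the counting interval of the middle member and 4 moved. Relative to all genes, embryo H3K27ac against H3K4me3 (-0.09) turned to 0.34 with the deposited values and 0.03 with those values without the spot factor, and embryo H3K27me3 against H3K4me3 (0.37) turned to -0.02 without the genes lowest in reads. The 4 that moved were the brain median percentile, which was 54.5 with the deposited values, 67.0 without the genes lowest in reads (the bottom 0.25) and 50.4 with the deposited values divided by each spot's factor, against 75.5, and the paw median, which was -0.25 with a pseudocount of 1, against -0.55. The last follows from the larger pseudocount, which draws every ratio toward 0; the cause of the others was not tested. Of 48 single-gene values in the brain against embryo comparison 45 stayed within their interval. Gfap and Slc1a3 gave none, having no brain value here. The division by spot factors, the omission of columns 1, 5, 9 and so on and the omission of Aldoc were chosen after seeing the data. The embryo intervals are wide, down to 1 read per gene, so staying inside them says little. No paired analysis was possible because each group has 1 section.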
